A study of Mus musculus with 2 samples.

Results

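Tas2r102, Tas2r103, Tas2r109, Tas2r116, Tas2r117, Tas2r120 and Tas2r131 are 7 bitter taste receptor genes of the distal receptor cluster on mouse chromosome 6. They were taken as a list of named genes in that cluster. They are 7 of the 34 Tas2r genes, and of the 21888 genes, in the count tables of the 2 papillae. A gene missing from the table of a papilla was counted as 0 there, which applied to Tas2r120 and Tas2r131 in the fungiform table.

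Cells were sorted from the tongues of adult mice of an α-gustducin-GFP line on the C57BL/6J background, in which green fluorescent protein marks cells that make α-gustducin. α-Gustducin, the product of Gnat3, is a G protein subunit of taste transduction. The groups were cells of the circumvallate papilla (CV), at the back of the tongue, and cells of the fungiform papillae (FP), at its front, with 1 library each from mice of the same line and with no treatment named. The sources used here do not give the number of animals behind each library. With 1 library per papilla there was no replicate check and no test between papillae. All intervals are 95% intervals that cover counting error only.

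Bitter receptors are G protein-coupled receptors encoded by the Tas2r family, mostly by genes of a single exon that lie in clusters. Type II taste cells carry them, and α-gustducin, a phospholipase, a calcium release channel and the cation channel Trpm5 pass the signal on. In rodents the distal cluster of chromosome 6 grew by repeated gene duplication, so its members are close relatives. A single bitter cell is known to be able to carry several receptors at once.

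The 7 genes spread over 380 kb (chr6:132656953-133037101), each with 1 exon in GENCODE M21 on mm10. In order along the chromosome these are Tas2r120, Tas2r102, Tas2r117 and Tas2r116 on the plus strand, then Tas2r131, Tas2r109 and Tas2r103 on the minus strand. Their coding sequences run from 885 bases (Tas2r120) to 1041 bases (Tas2r102). In the 21 pairwise alignments, coding identity ran from 62.3% to 81.5%, with a median of 66.0%. In an alignment of all 7, 168 of 842 columns without a gap held the same base in every member. The 60-base stretch with the most such positions (25 of 60) is shown because it is where the members are most alike. Capitals mark the bases shared by all 7, and each sequence reads 5′ to 3′ along the gene.
Tas2r120 (chr6:132657229-132657288, plus strand): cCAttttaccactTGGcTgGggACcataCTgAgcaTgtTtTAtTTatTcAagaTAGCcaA
Tas2r102 (chr6:132762466-132762525, plus strand): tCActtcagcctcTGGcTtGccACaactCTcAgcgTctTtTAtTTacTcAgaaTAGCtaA
Tas2r117 (chr6:132803200-132803259, plus strand): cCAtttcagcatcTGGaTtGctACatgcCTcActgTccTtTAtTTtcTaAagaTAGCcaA
Tas2r116 (chr6:132855716-132855775, plus strand): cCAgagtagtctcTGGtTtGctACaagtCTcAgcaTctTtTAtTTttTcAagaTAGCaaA
Tas2r131 (chr6:132957528-132957587, minus strand): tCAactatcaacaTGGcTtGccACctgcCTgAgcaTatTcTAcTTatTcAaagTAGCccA
Tas2r109 (chr6:132980607-132980666, minus strand): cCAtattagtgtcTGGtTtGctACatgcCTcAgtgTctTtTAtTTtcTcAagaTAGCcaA
Tas2r103 (chr6:133036752-133036811, minus strand): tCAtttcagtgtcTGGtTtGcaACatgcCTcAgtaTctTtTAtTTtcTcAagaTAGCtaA

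Tas2r109 and Tas2r117 were the pair most alike, at 81.5% identity, and had an identical run of 77 bases. It is shown because a read that lies inside it fits both genes equally. Capitals mark the run, and lower case marks 12 flanking bases on each side.
Tas2r109 (chr6:132980308-132980408, minus strand): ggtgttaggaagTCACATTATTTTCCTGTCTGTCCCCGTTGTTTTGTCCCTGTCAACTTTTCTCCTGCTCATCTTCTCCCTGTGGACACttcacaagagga
Tas2r117 (chr6:132803455-132803555, plus strand): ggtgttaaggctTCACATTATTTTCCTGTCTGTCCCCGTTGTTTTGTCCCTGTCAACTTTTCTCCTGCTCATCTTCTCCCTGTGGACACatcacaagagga

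The run was found in no other Tas2r coding sequence among 35 single-exon gene models. Of the 50-base windows of each coding sequence, 46 of 899 in Tas2r109 (5.12%) and 48 of 941 in Tas2r117 (5.10%) were also found in another Tas2r. Between these 2 genes the shared windows lie in the run shown and in a second identical run of 67 bases, which is parted from it by 1 base. Another 2 windows of Tas2r117 lie in a run of 51 bases in common with Tas2r123. None was shared in the other 5 members. Among the other pairs of members no identical run was longer than 22 bases. The nearest relative of Tas2r102 was Tas2r124, which is not a member, at 81.4% identity with a longest common run of 27 bases. The sources used here do not say how reads that match several receptors were treated. The split between Tas2r109 and Tas2r117 is therefore uncertain within both common runs.

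A barcode was kept if it had over 500 genes and its Gnat3 level, as the natural log of 1 + counts per 10000, exceeded 0.9. This left 32 of 61 CV barcodes and 21 of 29 FP barcodes. Kept cells held 32726 to 3447628 counts in CV (median 543963) and 193718 to 3190340 counts in FP (median 1141644), and no barcode occurred in both libraries. All 7 type II markers were above 10 CPM (reads of a gene per 1000000 counted) in both papillae, with Gnat3, the gene of the sort and of the limit, at 4372 CPM in CV and 5223 CPM in FP. Summed over 13 lingual keratinocyte markers, kept cells had 0 to 161 CPM in CV and 87.2 to 538 CPM in FP, with 0 (CV) and 4 (FP) of the 13 markers at 10 CPM or more and 5 (CV) and 1 (FP) at 0. A separate cluster of 7 FP barcodes raised 12 of those 13 markers and 0 of 7 type II markers. None of the 7 was kept. Any gene was taken to be on in a cell from 50 CPM upward, since single stray counts were common. Gnat3 was on in all kept cells, but Pou2f3, another type II marker, in 14 of 32 CV and 15 of 21 FP cells. A cluster with 38 kept cells raised all 7 type II markers. Another 10 kept cells lay in a cluster with a median of 84.6% mitochondrial counts, and 5 in a further cluster. Those 2 clusters raised 0 of 7 type II markers. A member was on in 6 of all 30 barcodes of the first, kept or not, and in 1 of the 5 of the second. Of 7 type III taste cell markers, 4 were in the tables. Otop1 (24.1 CPM in CV, 0 in FP) and Ncam1 (13.9 CPM in CV, 2.03 CPM in FP) were each on in 2 CV cells and no FP cell. Snap25 (3.28 CPM in CV) and Chga (2.54 CPM in CV) were on in no cell. The endothelial marker Pecam1 (36.3 CPM in CV, 0 in FP) was also on in 2 CV cells. Col1a1 (0.745 CPM in CV) and Dcn (0 in CV), of the same list of endothelial and fibroblast markers, were on in no cell. The 4 immune markers summed to 12.3 CPM in CV and 0.221 CPM in FP. Whether cells of these other types were present, and any part of their RNA in the receptor values, was not tested.

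The distal receptors were more abundant in CV cells than in FP cells, and they came from few cells in both. Summed over the 7 genes, pooled kept cells reached 461 CPM in CV, against 150.0 CPM in FP (13613 and 3396 counts), a ratio of 3.07. Without the cell of each papilla with the highest sum these were 447 CPM in CV and 27.96 CPM in FP. Tas2r109, Tas2r116, Tas2r117, Tas2r120 and Tas2r131 were at least 2-fold higher in CV on the log2(CPM + 10) scale, and 0 of the 7 had such an excess in FP. With cells thinned to equal totals, or with the mean of per-cell CPM, 3 of the 7 passed that fold in CV. Over all 10918 genes that reached 10 CPM in a papilla, 21.04% were higher in CV by that measure and 16.98% were higher in FP. The median log2 ratio of CV over FP was 1.37 for the 7 members (−0.11 to 2.55) and 0.05 for all 10918 genes. The members' median was 2.46 without a pseudocount and with a floor of 3 pooled counts in place of each 0.

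Tas2r117 was the most abundant member in both papillae. It had 204 CPM in CV (interval 199 to 209) and 72.6 CPM in FP (69.2 to 76.2), with a log2 ratio of 1.37. Over CV cells the lowest value was 0, the median 0.145 and the highest 946 CPM, and over FP cells these were 0, 0 and 1440 CPM. It was on in 11 of 32 CV cells, at 56.8 to 946 CPM, and in 2 of 21 FP cells, at 170 and 1440 CPM. The groups overlapped, and the highest cell of all was an FP cell that held 91.7% of the FP counts of this gene. Without the cell of each papilla with the most counts of this gene, 169 CPM of Tas2r117 was left in CV, against 6.34 CPM in FP.

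Tas2r109, its closest relative among the members, had 99.8 CPM in CV (96.3 to 104) and 18.2 CPM in FP (16.5 to 20.04), with a log2 ratio of 1.96. The ratio of counts per total was 5.49 (4.95 to 6.10). It was on in 10 CV cells, at 73.4 to 742 CPM, and in 1 FP cell, at 348 CPM. That FP cell held 88.6% of the FP counts, and without the cell of each papilla with the most Tas2r109 counts the levels were 82.7 CPM in CV and 2.18 CPM in FP.

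Tas2r120 and Tas2r131 were seen in CV cells only. Tas2r120 had 48.6 CPM in CV (46.1 to 51.2) and was not listed in FP, where 3 counts over the pooled cells would make 0.132 CPM. Against that floor the CV level was 367-fold higher, and the exact lower limit of the ratio was 298. Tas2r131, a receptor known from reporter mice that label part of the bitter cells, had 37.4 CPM in CV (35.2 to 39.6) and was likewise missing from the FP table. The same floor put it 282-fold higher in CV, and the exact lower limit was 229. Each was on in 5 of 32 CV cells, Tas2r120 at 55.6 to 494 CPM and Tas2r131 at 61.4 to 1029 CPM. Each was on in 0 of 21 FP cells, where a floor of 3 cells would be 14.3% and the exact upper limit is 16.1%. That limit includes the CV share of 15.6%. The fold limits hold for pooled counts and do not cover which cells were sampled. A single CV cell held 64.7% of the Tas2r120 counts, and without it 18.5 CPM was left.

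Tas2r116 was the least abundant member in CV. It had 14.02 CPM in CV (12.7 to 15.4) and 1 count in FP, which is 0.0442 CPM. The ratio was 317, with a counting interval from 56.7 to 12568. It was on in 3 CV cells, at 69.2, 80.5 and 138 CPM, and in no FP cell. Without the CV cell with the most counts (198 of 414) it was at 7.98 CPM in CV, and without the cell at 138 CPM it was at 12.3 CPM.

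Tas2r102 and Tas2r103 were at like pooled levels in the papillae. Tas2r102 had 24.3 CPM in CV (22.6 to 26.2) and 23.1 CPM in FP (21.2 to 25.2), a ratio of 1.05 whose interval of 0.939 to 1.18 includes 1. It was on in 5 CV cells, at 54.3 to 202 CPM, and in 3 FP cells, at 101, 111 and 165 CPM. Tas2r103 had 32.6 CPM in CV (30.6 to 34.7) and 35.9 CPM in FP (33.5 to 38.5), a ratio of 0.907 (0.825 to 0.997). It was on in 3 CV cells, at 60.1, 64.4 and 258 CPM, and in 1 FP cell, at 775 CPM. That FP cell held 812 of the 814 FP counts. Without the cell of each papilla with the most counts of this gene, 14.2 CPM was left in CV, against 0.0926 CPM in FP, so its FP level was that of 1 cell.

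**Figure D1:**
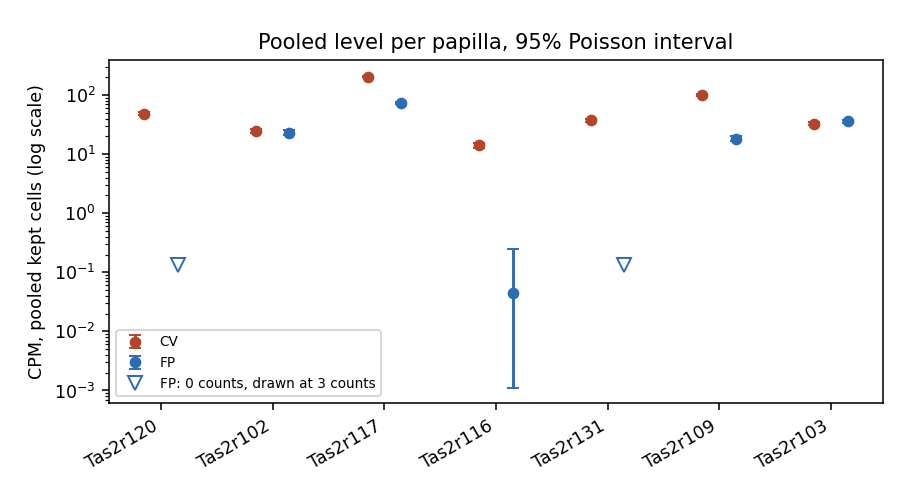
Pooled level of each member in kept cells of CV (red, left of each pair) and FP (blue), in CPM on a log axis, in order along the chromosome, with 95% Poisson bars and open triangles at 3 counts where FP had 0. Tas2r102 and Tas2r103 lie close together in both papillae, Tas2r109 and Tas2r117 are higher in CV, and Tas2r116, Tas2r120 and Tas2r131 have at most 1 count in FP.

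Scaled by transcript length, the order of levels in CV was Tas2r117 (176 CPM per kb), Tas2r109 (105), Tas2r120 (54.5), Tas2r131 (36.1), Tas2r103 (34.7), Tas2r102 (23.3) and Tas2r116 (15.3). Only the neighbours Tas2r131 (33.98 to 38.3 CPM per kb) and Tas2r103 (32.6 to 37.0) had intervals that overlapped. In FP the order was Tas2r117 (62.7 CPM per kb), Tas2r103 (38.3), Tas2r102 (22.2), Tas2r109 (19.1) and Tas2r116 (0.0481), with the other two at 0. There the intervals of Tas2r102 (20.3 to 24.1) and Tas2r109 (17.3 to 21.1) overlapped. Tas2r117 led in both papillae, and Tas2r109 stood second in CV and below Tas2r103 and Tas2r102 in FP. Both orders rest on few cells. Without the CV cell with the most counts of each gene, Tas2r117 (169 CPM) and Tas2r109 (82.7) still led in CV. After them came Tas2r131 (28.1), Tas2r102 (20.5), Tas2r120 (18.5), Tas2r103 (14.2) and Tas2r116 (7.98 CPM, not scaled by length). Without the FP cell with the most counts of each gene, Tas2r102 led at 13.9 CPM, before Tas2r117 at 6.34, Tas2r109 at 2.18 and Tas2r103 at 0.0926 CPM (not scaled by length).

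At least 1 member was on in 14 of 32 CV cells (43.8%, Clopper-Pearson interval 26.4 to 62.3) and in 4 of 21 FP cells (19.05%, 5.45 to 41.9). The intervals overlap, and with 1 library each the difference was not tested. With no Gnat3 limit the shares were 28.6% of 56 CV barcodes and 17.2% of 29 FP barcodes. At 1 count or more these were 24 kept CV cells (75%) and 10 FP cells (47.6%). Among the 7 keratinocyte-like FP barcodes, which should lack bitter receptors, 3 had a member count (1 count at most) and 0 had a member on. For 0 of 7 the exact upper limit is 40.96%, and a floor of 3 barcodes would be 42.9%. Their median total was 1679949 counts.

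**Figure D2:**
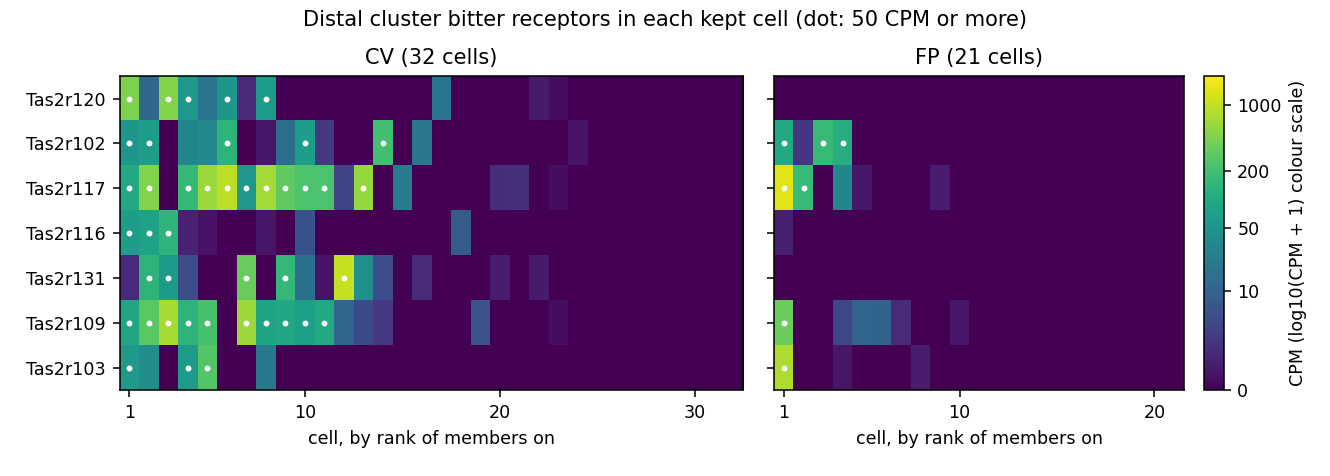
CPM of each member (rows, in order along the chromosome) in each kept cell (columns, by number of members on), for CV on the left and FP on the right, on a log10(CPM + 1) colour scale with a white dot at 50 CPM or more. In CV the dots fall in 14 cells and mostly share columns, while in FP 4 of the 7 dots stand in 1 cell.

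CV cells with a distal receptor on mostly held several of them. Of the 14 CV cells, 3 had 1 member on, 1 had 2, 6 had 3, 2 had 4, 1 had 5 and 1 had 6, with a median of 3. Of the 4 FP cells, 3 had 1 member on and 1 had 4. All 7 members were on in some CV cell, against 4 in FP.

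The CV cell with 6 members on (2081456 counts) had Tas2r120 at 446, Tas2r117 at 101, Tas2r109 at 85.0, Tas2r116 at 69.2, Tas2r103 at 60.1 and Tas2r102 at 54.3 CPM. Another CV cell had 5 on, with Tas2r117 at 474, Tas2r109 at 289, Tas2r131 at 140, Tas2r116 at 80.5 and Tas2r102 at 67.1 CPM. In these cells 1 or 2 members stood well above the rest. Single members could also stand alone at a high level, as Tas2r131 did in a CV cell at 1029 CPM. Another CV cell had Tas2r117 alone at 594 CPM, with Tas2r131 just under the level for on at 44.6 CPM. In one more Tas2r102 was alone at 202 CPM. They were alone only among the 7 members, as these cells had 4, 3 and 2 other Tas2r genes on. The FP cell with 4 members on had Tas2r117 at 1440, Tas2r103 at 775, Tas2r109 at 348 and Tas2r102 at 101 CPM. It held 82.2% of all FP counts of the 7 genes, whereas the CV cell with the most held 19.95% of the CV counts.

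**Figure D3:**
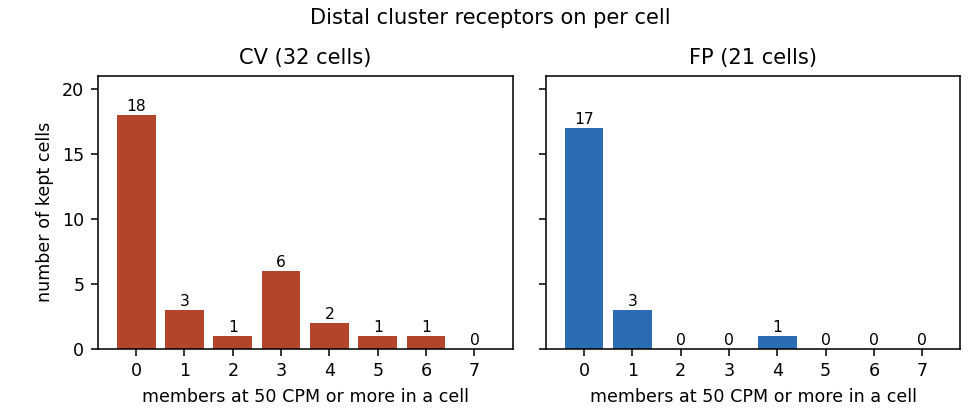
Number of kept cells (y axis) by how many of the 7 members were at 50 CPM or more in the cell (x axis), for CV on the left and FP on the right, with the count above each bar. In CV 11 of 32 cells had at least 2 members on, against 1 of 21 in FP.

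Of the 21 pairs of members, 20 were on together in at least 1 CV cell, and each of these 20 shared more cells than the product of the separate shares would give. The exception was Tas2r103 with Tas2r131, which one CV cell held at 42.3 and 140 CPM. With 10 CPM as the level for on, all 21 pairs shared a CV cell. Since cells differ in depth and kind, such an excess is a description of these cells only. The share of cells with both members among cells with either had a median of 30% and ran to 75% for Tas2r109 with Tas2r117. These were on together in 9 cells, which is 90% of the Tas2r109 cells and 81.8% of the Tas2r117 cells. Tas2r109 was also on in all 3 cells with Tas2r103 and in all 3 with Tas2r116, and 12 of the 14 CV cells had Tas2r109 or Tas2r117 on. In FP, 6 pairs were on together, all in the single cell with 4 members.

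Tas2r109 and Tas2r117 also occurred apart. In one CV cell there were 302 Tas2r109 counts and 0 Tas2r117 counts, and in another 0 Tas2r109 and 357 Tas2r117 counts. In FP, one cell had 365 Tas2r109 and 1508 Tas2r117 counts, and another had 0 and 81. Over the 12 CV cells with either on, Tas2r109 took from 0% to 100% of the counts of the pair. In the 9 of these with both on it took from 10.6% to 91.7%. The same held for Tas2r102 and its relative Tas2r124, with 113 and 1 counts in one CV cell and 16 and 129 in another. In FP one cell had 229 and 1 counts, and another had 1 and 340. The part of reads assigned to the wrong gene of a pair was not tested.

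**Figure D4:**
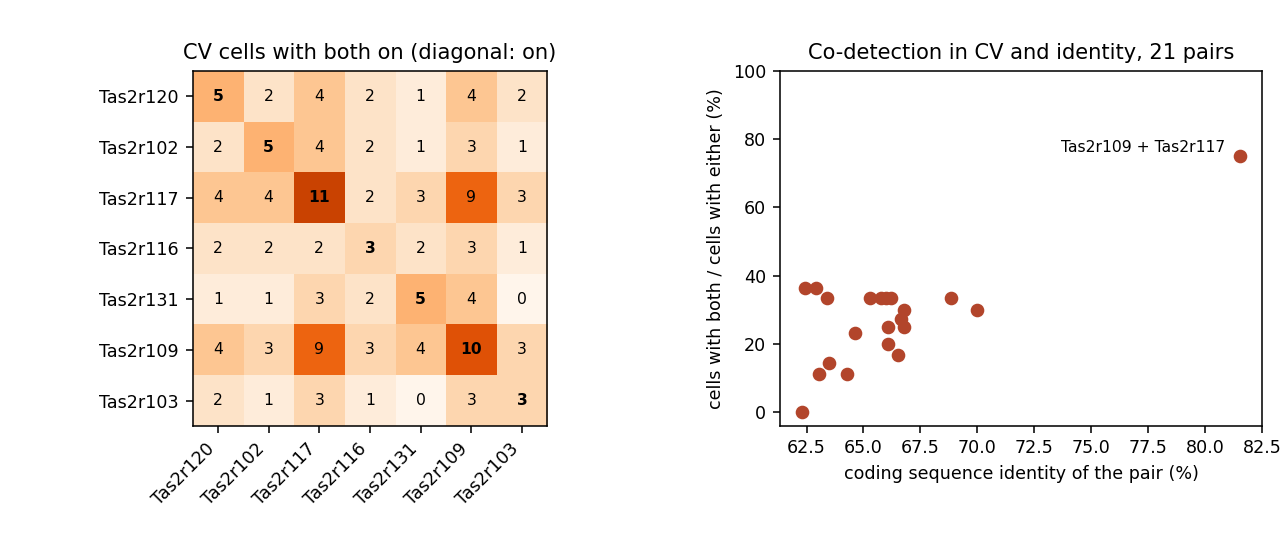
Left, number of CV cells with both members of a pair on, with the number of CV cells that had each member on along the diagonal. Right, for each of the 21 pairs, CV cells with both on as a percent of cells with either on (y axis) against coding sequence identity (x axis), where Tas2r109 with Tas2r117 stands apart at 81.5% identity and 75%.

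Across the 21 pairs, which share genes and cells, the rank correlation of cell sharing in CV with coding identity was 0.20, and with distance along the chromosome −0.11. Tas2r131 and Tas2r109, only 23.1 kb apart, were on together in 4 CV cells, the same number as Tas2r109 and Tas2r120, 323 kb apart. Neither nearness on the chromosome nor identity ordered the pairs closely.

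The cells with a distal receptor on also had other bitter receptors on. In CV, cells with a member on had a median of 5.5 other Tas2r genes on (2 to 10), against 2 (0 to 8) in cells with none. In FP these medians were 5 (3 to 9) and 1 (0 to 4). Another receptor of the distal cluster was on in 11 of 14 CV cells with a member on and in 3 of 18 without, and in FP in 4 of 4 with and 4 of 17 without. At least 1 of Tas2r104, Tas2r105, Tas2r106 and Tas2r107 was on in all 14 CV cells with a member on, in 13 of 18 CV cells without, in all 4 FP cells with a member on and in 6 of 17 FP cells without. Tas1r3, a subunit common to the sweet receptor and the umami receptor, was on in 4 of 14 CV cells with a member on and 3 of 18 without, and in FP in 1 of 4 and 7 of 17.

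Depth moved with these counts in CV. CV cells with a member on had a median total of 1379884 counts (at least 224021), against 145832 (at least 32726) in CV cells without. In FP the medians were 1219650 and 1141644 counts. Among CV cells over 1000000 counts, 8 had a member on and 6 had none, with medians of 8 (4 to 10) and 5.5 (4 to 8) other Tas2r genes on, and another distal receptor was on in 8 of 8 and 2 of 6. Over all kept CV cells, Gnat3 had like medians with a member on (4237 CPM, 339 to 6708) and without (4120 CPM, 173 to 16848). Among CV cells over 1000000 counts these medians were 5405 and 4120 CPM. With thinning to 71770 counts (6 CV cells left out), a member was on in 53.8% of 26 CV cells and 19.05% of FP cells. Then 11 CV cells and 1 FP cell had 2 or more on. Pairs of members that shared a cell were 14 in CV (20 unthinned) and 6 in FP. The part of depth in the members' co-detection beyond the split and the thinning was not tested.

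**Figure D5:**
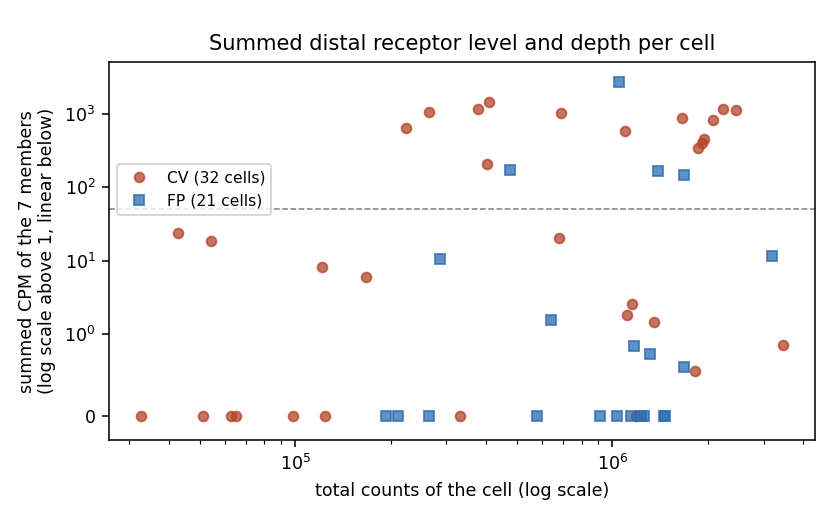
Summed CPM of the 7 members in each kept cell (y axis, log scale above 1 and linear below) against its total counts (x axis, log scale), for CV cells (red circles) and FP cells (blue squares), with a dashed line at 50 CPM. All CV cells above the line have at least 224021 counts, and shallower CV cells lie below it.

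Most other bitter receptors were also higher in CV. There were 20 other Tas2r genes at 10 CPM or more in a papilla, of which 16 had a level at least 2-fold above FP in CV and 0 the reverse. Their median log2 ratio was 1.36. Among the other distal receptors 5 of 7 were at least 2-fold higher in CV (median 1.23), and among the receptors outside the distal cluster 11 of 13 (median 1.42). The members made up 22.3% of all Tas2r counts in CV and 17.9% in FP. The list was therefore near the other bitter receptors in its share of genes higher in CV.

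A fixed list of genes linked to taste transduction was closer between the papillae than the bitter receptors. Of 14 fixed genes 13 were in the tables and 12 had 10 CPM or more, of which 2 were higher in CV by at least 2-fold, 0 were higher in FP and 10 lay within 2-fold (median log2 ratio −0.13). For the phospholipase gene Plcb2 the levels were 2129 CPM in CV and 2930 CPM in FP. For the calcium release channel gene Itpr3 they were 614 CPM in CV and 651 CPM in FP. Rgs21, a regulator of taste G proteins, stood at 166 CPM in CV, against 202 CPM in FP. Those higher in CV were Calhm1, part of the channel through which taste cells release ATP (12.02 CPM in CV, on in 1 cell, and 0.309 CPM in FP), and Gna14, a Gq-family subunit (13.6 CPM in CV, not listed in FP). All cells were sorted and kept by Gnat3, a gene of this list.

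Across the 32 kept CV cells, the genes whose CPM ranked most like the summed level of the members were Mageb16-ps1 (Spearman correlation 0.82), Cdh7 (0.78), Vprbp (0.78), Wdr20rt (0.78) and the bitter receptor Tas2r123 (0.77), among 4885 genes. Mageb16-ps1 was on in 11 cells, all of them cells with a member on, and Tas2r123 in 6, likewise all with a member on. For Tas2r102 the 3 nearest genes were Parp12 (0.81), Rad54l2 (0.78) and Wdr92 (0.78). They were Kif21b (0.79), Rp2 (0.75) and Nfe2l2 (0.71) for Tas2r109, and Lclat1 (0.81), Wdr20rt (0.81) and Enah (0.79) for Tas2r117. They were Zfp458 (0.72), Smug1 (0.71) and Taf3 (0.70) for Tas2r120, and Cdh7 (0.73), Clec2d (0.70) and Vmn1r58 (0.70) for Tas2r131. Enah was on in 10 of the 11 CV cells with Tas2r117 on and in 16 CV cells in all. These cells share 1 library and differ in depth. The genes were picked by their ranks in the same cells, so the overlaps follow from that choice and are no separate finding. The members' summed CPM itself had a rank correlation of 0.50 with genes per cell, 0.43 with total counts and −0.26 with Gnat3.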

How the data were processed

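Each papilla has 1 table, in which the authors deposited raw whole-number counts per gene and barcode. Cells were captured on BD Rhapsody beads and cDNA was amplified by TAS-Seq, per the series' design text, which also names alignment to reference RNA and an error correction of the counts. The submitters' processing notes list Seurat 2.3.4, Bowtie2 2.3.4.1, cutadapt 2.10 and build mm10. No source used here says if molecular barcodes were collapsed. Counts may therefore hold PCR copies, and intervals may be too narrow.

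The logarithm of the Gnat3 limit was read as natural. Pooled counts were scaled to CPM with exact Poisson 95% intervals, ratios have exact conditional binomial intervals, and shares have Clopper-Pearson intervals (scipy 1.17.1). Ratios are CV over FP on log2(CPM + 10), which understates changes of low genes. Clustering used scanpy 1.11.5 (1000 variable genes, 15 components, 10 neighbours, Leiden resolution 0.8). No doublet caller was run on so few cells. Positions and sequences came from GENCODE M21 on mm10 and were aligned with MAFFT 7.526 and Biopython 1.88. The code for ratios and correlations was checked on simulated counts with planted changes, which is no test of the values reported here. All 7 members were named, together with the 5 genes most like their sum and the 3 most like each member on in at least 4 CV cells. Members, lists and the level of 50 CPM were chosen with earlier results of these data known.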

Additional observations from a re-analysis of the deposited data

Results flagged for a closer look

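Among barcodes below the Gnat3 limit, which entered no comparison, 3 had a distal receptor on. A CV barcode with 0 Gnat3 counts had 149 Tas2r102 counts (3221 CPM of 46257 counts, 34.5% mitochondrial). The highest kept CV cell for Tas2r102 reached 202 CPM. An FP barcode with 17 Gnat3 counts had 141 Tas2r109 counts (559 CPM of 252069 counts, 66.0% mitochondrial) beside 10 Tas2r117 counts. A CV barcode with 2 Gnat3 counts had 33 Tas2r117 counts (196 CPM of 168001 counts, 81.5% mitochondrial). They stand out because the gate was for gustducin cells and the other 34 barcodes left out had no member on. Their part in the receptor levels is given with the Gnat3 limit dropped.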

How the results depend on the processing

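The summed log2 ratio of CV over FP was 1.56 and stayed on the CV side under 10 alternatives, from 1.17 to 3.59. It was 1.77 with no Gnat3 limit, 1.35 with cells thinned to 71770 counts (6 CV cells left out), 1.17 with mean CPM per cell and 1.61 with a pseudocount of 1. Without the highest cell of each papilla it was 3.59 (447 CPM in CV, 27.96 CPM in FP), and that FP cell thus set most of the FP level. Chosen after seeing the data, leaving out cells over 50% mitochondrial gave 1.48 and keeping cells over 1000000 counts gave 1.32. Members at least 2-fold higher in CV were 5, and 3 after thinning or with mean CPM per cell. Single ratios kept their sign except Tas2r102, at −0.20 in cells over 1000000 counts, and Tas2r103, at 0.11 with no Gnat3 limit and 2.09 without the highest cells. The causes were not tested.

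The share of cells with a member on was 28.6% in CV and 17.2% in FP with no Gnat3 limit. At 1 count, a member was seen in 75% of CV and 47.6% of FP cells, 18 CV and 4 FP cells had 2 or more, and 10 FP pairs shared a cell. FP cells with 2 or more members on were 2 at 3 counts or 10 CPM and 0 without the highest cell, which left 0 FP pairs. At 100 CPM 10 CV pairs shared a cell, and at 1 count, 3 counts or 10 CPM all 21 did. The median of members on per CV cell, 0 as reported, was 0.5 with totals outside mitochondrial and ribosomal RNA, 1 thinned, 1 at 10 CPM, 2 at 1 count, 0.5 without shallow barcodes whose numbers adjoin a deeper one, and 2.5 over 1000000 counts. With Tas2r109 and Tas2r117 counted as 1 receptor, 10 CV cells and 1 FP cell had 2 or more on. No paired analysis was possible because each papilla had 1 library. In the shallowest kept CV cell, with 32726 counts, 50 CPM is under 3 counts, so a call there can rest on few counts. The effect of this on the shares was not tested.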
